A study of Mus musculus with 5 samples.

Results

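Regions of Pou4f1 CUT&Tag signal were examined around the 5 genes that encode the Pou4 and Islet transcription factors, Pou4f1, Pou4f2, Pou4f3, Isl1 and Isl2. A region was taken when it overlapped the body of a gene or lay within 100 kb of it (GENCODE M21, mm10), and 23 of the 8038 regions in the deposited table met this rule. Pou4f1 and Pou4f3 had 7 regions each, Isl2 had 4, Pou4f2 had 3 and Isl1 had 2. Of the 23 regions, 4 overlapped a gene body, 10 lay outside it but within 10 kb and 9 lay beyond 10 kb. CUT&Tag uses an antibody to bring a protein A-Tn5 transposase to a chromatin protein, so that DNA near the protein is cut and tagged for sequencing. The libraries came from wild-type mouse embryos of stage E16.5 (days of gestation), whose retinas were pooled by 4 and dissociated, and were made with rabbit anti-Pou4f1 antibody (n = 2) or rabbit IgG (n = 2). A further library made with rabbit anti-H3K9AC antibody (n = 1) was not analysed here. By their labels the libraries share genotype, tissue and age, and differ in the antibody. Whole retina holds progenitors and other neurons beside retinal ganglion cells (RGCs), so a low signal from many cells and a high signal from few cannot be told apart. The table holds chromatin signal and no transcript levels, so the tissue was not checked against marker transcripts.

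Pou4f1, Pou4f2 and Pou4f3 (also called Brn3a, Brn3b and Brn3c) are class IV POU factors, which bind DNA through a POU-specific domain joined to a POU homeodomain. Isl1 and Isl2 are LIM-homeodomain factors. In the retina, Pou4f2 and Isl1 act together early in RGC differentiation downstream of Atoh7. Pou4f1 stays on in most mature RGCs, while Pou4f3 marks RGC subtypes and Isl2 marks a subset of RGCs. Pou4f3 is best known for its role in hair cells of the inner ear, and Pou4f1 for its role in sensory neurons, where it acts on its own gene.

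Sequences are shown for 3 regions near Pou4f1 and Pou4f2 that hold a POU or homeodomain motif, for the distal Isl2 regions away from any gene start, which were among the highest by signal, and for an Isl2 promoter within a region. They were read from GRCm38.p6 (mm10) on the plus strand. Capitals mark a motif, which is either a POU4 consensus of 10 letters or the homeodomain core TAATTA. The stretch within the region 7.2 kb downstream of the Pou4f1 start (chr14:104460961-104461052) holds TAATTA and then the POU4 consensus. The central 300 bp of the region 5.7 kb upstream of Pou4f1 (chr14:104473538-104473837) holds TAATTA. The central 300 bp of the region 9.4 kb downstream of the Pou4f2 start (chr8:78427064-78427363) holds the POU4 consensus, in the minus-strand orientation. The central 300 bp of the regions 91.0 kb (chr9:55447515-55447814) and 83.2 kb (chr9:55455328-55455627) upstream of Isl2 hold neither. The former is labelled intergenic because it overlaps no protein-coding gene. The promoter of the longer Isl2 transcript (RefSeq, GRCm38.p6, chr9:55540899-55541148, plus strand, the 250 bases up to the start) lies wholly within a region and holds neither motif.
Pou4f1 downstream: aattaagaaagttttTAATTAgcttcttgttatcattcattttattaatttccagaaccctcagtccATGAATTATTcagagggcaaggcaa
Pou4f1 upstream: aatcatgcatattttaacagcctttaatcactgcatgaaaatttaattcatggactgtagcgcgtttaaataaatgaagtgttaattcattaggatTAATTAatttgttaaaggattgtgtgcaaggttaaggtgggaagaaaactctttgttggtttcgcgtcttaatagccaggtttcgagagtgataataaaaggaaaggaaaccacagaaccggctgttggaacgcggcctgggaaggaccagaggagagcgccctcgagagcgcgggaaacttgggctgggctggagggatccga
Pou4f2 downstream: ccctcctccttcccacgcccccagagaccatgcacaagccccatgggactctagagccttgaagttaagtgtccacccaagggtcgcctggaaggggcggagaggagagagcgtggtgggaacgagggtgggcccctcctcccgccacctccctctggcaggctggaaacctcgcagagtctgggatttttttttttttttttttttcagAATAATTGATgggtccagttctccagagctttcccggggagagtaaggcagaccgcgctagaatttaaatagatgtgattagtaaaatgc
Isl2 intergenic: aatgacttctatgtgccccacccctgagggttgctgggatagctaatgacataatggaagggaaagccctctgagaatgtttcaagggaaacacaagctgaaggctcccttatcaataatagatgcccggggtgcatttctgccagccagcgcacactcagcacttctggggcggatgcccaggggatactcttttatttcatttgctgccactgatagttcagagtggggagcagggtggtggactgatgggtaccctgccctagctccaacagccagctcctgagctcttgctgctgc
Isl2 within Etfa: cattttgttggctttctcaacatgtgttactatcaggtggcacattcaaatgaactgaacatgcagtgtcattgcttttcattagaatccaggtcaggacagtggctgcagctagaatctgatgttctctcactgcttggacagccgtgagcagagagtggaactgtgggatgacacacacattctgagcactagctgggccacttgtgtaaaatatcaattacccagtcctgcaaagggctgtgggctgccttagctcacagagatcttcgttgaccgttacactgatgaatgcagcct
Isl2 promoter: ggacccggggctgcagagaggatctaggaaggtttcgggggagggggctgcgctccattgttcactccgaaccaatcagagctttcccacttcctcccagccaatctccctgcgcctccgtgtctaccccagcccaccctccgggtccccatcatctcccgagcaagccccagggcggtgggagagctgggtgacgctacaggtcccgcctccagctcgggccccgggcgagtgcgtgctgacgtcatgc

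Pou4f1 signal exceeded IgG signal at all 5 loci as deposited, and 2 of 23 regions turned below IgG when the signal was scaled by column totals. That scaling sets equal totals over regions chosen on Pou4f1 signal, so it takes out part of the difference by construction. The groups did not overlap in 23 of 23 regions, with each Pou4f1 value above each IgG value, and the same held for 96.5% of all regions. By limma, 19 of 23 were higher in Pou4f1 at an adjusted p under 0.05 ("passed" in what follows) and 0 were lower, while 64.8% of all regions passed as higher. The authors chose the regions on their Pou4f1 signal, so an excess over IgG is in part a property of the table, and the share of the 23 that passed is given beside that of all regions as a description. The median log2 difference, on log2(signal + 1), was 5.66 in the 23 regions and 5.22 in all 8038.

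The signal is a mean coverage per base of the region, so it can be compared between regions of different length. Multiplied by region length, 99.98% of the values above 0 in each Pou4f1 library and 100% of those in IgG were whole multiples of a step of the library, within 0.05 of a step. The step was 45.0 and 61.2 in Pou4f1 replicates 1 and 2, 76.2 in the IgG library named so and 88.9 in the IgG library named negative control. IgG values are given in that order throughout. Taken as covered bases, the IgG values of the 23 regions ran from 0 to 320, where 160 bases is about 1 read pair. The 2 IgG libraries were both listed at 0 in 4 regions, 1 of them was at 0 in 14 and neither in 5. The 4 regions that did not pass were each at 0 in 1 IgG library and had 155 to 320 covered bases in the other. Of the 14 regions with 1 IgG library at 0, 10 passed, and of the other 9 all did, so a region that did not pass is not shown to lack a difference. The 4 regions with both IgG libraries at 0 were the only ones of the 23 to pass under every alternative setting of the fit, but a value of 0 does not move when IgG is scaled and adds no spread, so this follows in part from the zeros. The other calls rest on the scaling, the pseudocount or single libraries.

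**Figure D1:**
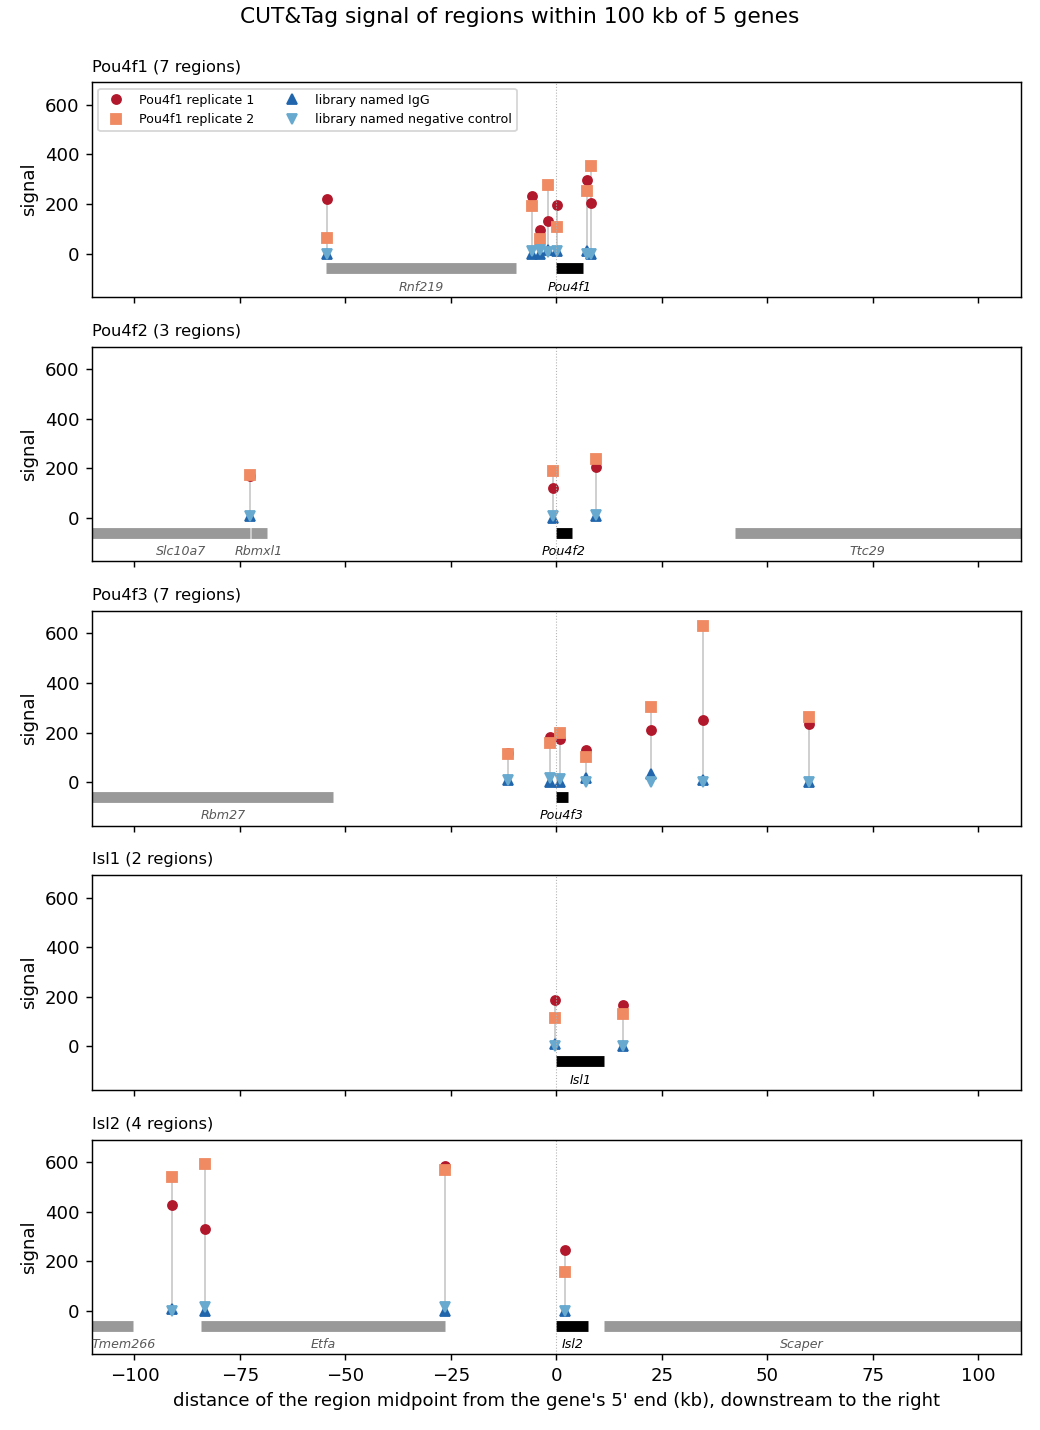
Signal (y axis) of each region within 100 kb against the distance of its midpoint from the 5′ end of the gene in kb (x axis, downstream to the right), with 1 panel per gene. Symbols are the 4 libraries, black bars the body of the gene and grey bars other protein-coding genes. The 3 regions upstream of Isl2 reach above 300 in both Pou4f1 replicates, and those of Pou4f3 spread from -11.4 to 59.9 kb.

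Pou4f3 (chr18:42394539-42397249, plus strand) had 7 regions spread over both sides of the gene with no other protein-coding gene between, and 4 of them lay beyond 10 kb. The highest was 34.8 kb downstream of the start (chr18:42428973-42429706), outside every protein-coding gene. Its nearest annotated start was that of Gm16415, which is not protein-coding, at 11680 bp. The Pou4f1 replicates gave 251 and 630 there, and the IgG libraries 8.31 and 0. It ranked 537 of 8038 by mean Pou4f1 signal, and the log2 difference was 7.03 (SE 1.42, adjusted p = 0.0292). Replicate 2 was 2.51 times as high as replicate 1, the widest excess of replicate 2 among the 23 regions, but the lower of them was still far above both IgG libraries. The ranks within the replicates were 2246 and 263.

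The other distal regions of Pou4f3 were lower and closer between replicates. At 59.9 kb downstream (chr18:42453975-42454817) the signal was 235 and 263 in Pou4f1 against 0 and 2.32 in IgG, with a log2 difference of 7.10 (SE 0.78, adjusted p = 0.00786). At 22.4 kb downstream (chr18:42416527-42417286) the signal was 211 and 303 in Pou4f1. The library named IgG stood at 32.1 there, the highest IgG value near the 5 genes, while the negative control was at 0, and the region did not pass (log2 difference 5.46, SE 2.04, adjusted p = 0.0827). At 11.4 kb upstream (chr18:42382423-42383759) the signal was lowest of the distal regions, 118 and 113 against 9.12 and 10.6, and the 4 values were close within each group. That region passed with a log2 difference of 3.42 (SE 0.38, adjusted p = 0.00819), although it ranked 6170 of 8038, and its log2 difference was -0.48 under scaling by column totals.

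Near the gene, the region centred 960 bp downstream of the 5′ end (chr18:42394955-42396044) lay wholly within Pou4f3, with 970 bp of its 1090 bp in exons and 894 bp in coding sequence. Pou4f1 signal was 174 and 198 there, against 0 and 12.6 (log2 difference 5.66, SE 1.53, adjusted p = 0.0483). It covers the start of a second Pou4f3 transcript at 42395075 but not the 5′ end of the gene. The regions 1.4 kb upstream (183 and 159 against 0 and 16.1) and 7.0 kb downstream (131 and 102 against 15.7 and 0) had Pou4f1 values above IgG with no overlap, but did not pass (adjusted p = 0.0599 and 0.0708). Thus 4 of 7 Pou4f3 regions passed, 3 of them distal, against 64.8% of all regions.

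Isl2 (chr9:55538672-55546180, plus strand) had the highest signal of the 5 loci, and it was upstream of the gene. The median of the mean Pou4f1 signal over its 4 regions was 471, against 204 at Pou4f1, 186 at Pou4f3, 172 at Pou4f2, 151 at Isl1 and 173 over all regions. The 3 distal regions ranked 211, 386 and 458 of 8038, and with the Pou4f3 region at 34.8 kb they were the only ones of the 23 among the top 10% of the table by mean Pou4f1 signal. Etfa, which encodes a subunit of the mitochondrial electron transfer flavoprotein, is transcribed away from Isl2 and takes up most of this upstream interval, so none of the 3 had Isl2 as the nearest coding gene start.

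The strongest, 26.5 kb upstream of Isl2 (chr9:55511761-55512602), was centred 61 bp from an annotated start of Etfa, with no protein-coding gene between it and Isl2. The Pou4f1 replicates were nearly equal there, at 585 and 569, against 0 and 16.9 (log2 difference 7.09, SE 1.68, adjusted p = 0.0387). The region 83.2 kb upstream (chr9:55455022-55455932) lay within Etfa, 32.0 kb from the nearest Etfa transcript start, which is internal to that gene. It gave 329 and 591 against 0 and 15.6 (log2 difference 6.76, SE 1.67, adjusted p = 0.0414). The region 91.0 kb upstream (chr9:55446999-55448329) lay beyond Etfa and outside every protein-coding gene, 39.8 kb from the same internal Etfa start. It gave 427 and 539 against 6.42 and 0 (log2 difference 7.46, SE 1.21, adjusted p = 0.0185). In all 3 the Pou4f1 replicates lay far above both IgG libraries. Since an annotated start of Etfa is nearer to each of them than that of Isl2, distance does not assign them to Isl2. All 3 calls were lost under scaling by column totals, with IgG taken as 2 times shallower and with a pseudocount of 0.1. So was the call of the highest Pou4f3 region.

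The only region near Isl2 itself was centred 2.2 kb inside the gene from its annotated 5′ end (chr9:55540288-55541361). It covers the start of the longer Isl2 transcript at 55541148, whose promoter is printed above, and 58 bp of its coding sequence. The Pou4f1 replicates gave 244 and 155, with both IgG values listed at 0 (adjusted p = 0.00226). A start of the antisense transcript Gm17226 lies 64 bp from its midpoint, so the region cannot be given to Isl2 alone. All 4 Isl2 regions passed, against 64.8% of all regions.

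**Figure D2:**
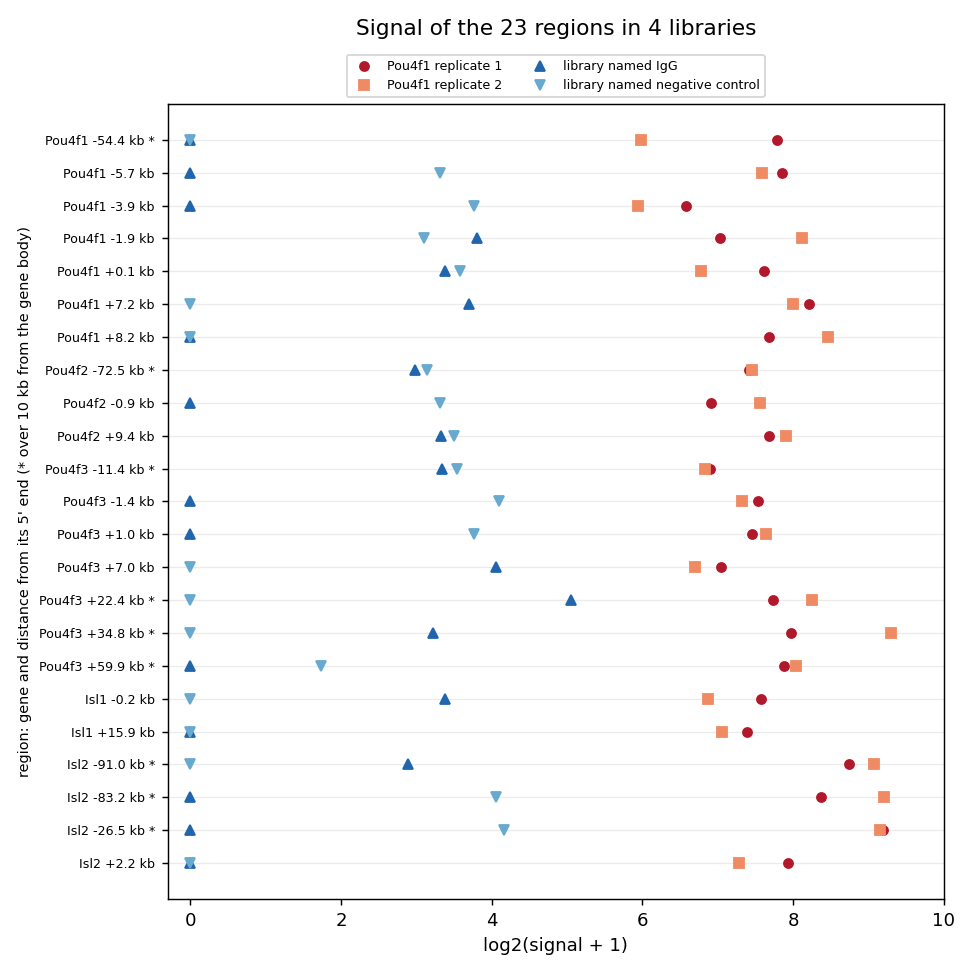
Signal of each of the 23 regions in the 4 libraries as log2(signal + 1) (x axis), with regions ordered by gene and by distance from its 5′ end (y axis, an asterisk marks regions over 10 kb from the gene body). In every row the red and orange Pou4f1 symbols lie to the right of the blue IgG symbols, and the IgG symbols lie at 0 in both libraries in 4 rows and in 1 of them in 14 rows.

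Pou4f1 (chr14:104461676-104467999, minus strand), the gene of the factor itself, had the densest group of regions. All but 1 of its 7 lay within 10 kb, on both sides. The pair with the highest mean signal lay just past the end of the gene. At 8.2 kb downstream of the start (chr14:104459540-104460042) the Pou4f1 replicates gave 205 and 352, with both IgG values listed at 0 (adjusted p = 0.00227), and 455 bp away is the start of the long noncoding RNA gene D130079A08Rik. At 7.2 kb (chr14:104460462-104461159), where the POU4 consensus and TAATTA printed above lie, it was 296 and 254 against 12.0 and 0 (log2 difference 6.25, SE 1.51, adjusted p = 0.0398).

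The region over the Pou4f1 start itself (chr14:104467257-104468558) was weaker, at 195 and 108 against 9.37 and 10.9, and ranked 4724 of 8038 (log2 difference 3.72, SE 0.51, adjusted p = 0.0127, and -0.20 under scaling by column totals). Upstream, the regions at 1.9, 3.9 and 5.7 kb ranged from 60.5 to 278 in the Pou4f1 replicates and from 0 to 13.0 in IgG, and that at 3.9 kb, the lowest of all 23 regions, did not pass (adjusted p = 0.0758). The region at 5.7 kb with the printed TAATTA gave 231 and 191 against 0 and 8.91. The single distal region, 54.4 kb upstream (chr14:104522053-104522717), was centred 237 bp from the start of Rnf219, which lies between it and Pou4f1. Its replicates were far apart, at 220 and 62.0, with both IgG libraries at 0 (adjusted p = 0.00904). In total 6 of 7 passed, against 64.8% of all regions.

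Pou4f2 (chr8:78433010-78436645, minus strand) had 3 regions. All passed as deposited, against 64.8% of all regions, and 0 of 3 passed under scaling by column totals, against 22.5%. With IgG taken as 4 times shallower, the regions at 9.4 and 72.5 kb still passed (adjusted p = 0.0310 and 0.0282). The region 905 bp upstream of the start did not (adjusted p = 0.224). The highest, 9.4 kb downstream of the start (chr8:78426548-78427878), gave 205 and 239 against 9.05 and 10.4 (log2 difference 4.38, SE 0.39, adjusted p = 0.00486). Scaled by column totals, the log2 difference was 0.46 (adjusted p = 0.564). It was the only one of the 23 with the POU4 consensus in its central 300 bp, as printed above. The region centred 905 bp upstream of the start gave 119 and 188 against 0 and 8.99 (log2 difference 5.57, SE 1.39, adjusted p = 0.0417). The distal region, 72.5 kb upstream (chr8:78508314-78510020), gave 170 and 174 against 6.92 and 7.81 (log2 difference 4.37, SE 0.38, adjusted p = 0.00455, and 0.48 with an adjusted p of 0.538 under scaling by column totals). It lay 179 bp from the start of Slc10a7, with the coding gene Rbmxl1 between it and Pou4f2.

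Isl1 (chr13:116298281-116309689, minus strand) had the fewest regions and the lowest median signal over its regions, although 4 single regions of Pou4f1 and Pou4f3 were lower than both of its own. The region over its start (chr13:116309376-116310426) gave 189 and 116 against 9.43 and 0 (log2 difference 5.53, SE 1.41, adjusted p = 0.0437), and that 15.9 kb downstream of the start, 4.16 kb past the end of the gene (chr13:116293444-116294126), gave 166 and 132 with both IgG libraries at 0 (adjusted p = 0.00222). They ranked 4702 and 4844 of 8038. No region beyond 10 kb was found although the nearest coding genes are far away, Parp8 at 545 kb and Itga1 at 1196 kb. The next region downstream, outside the 100 kb limit, was 445 kb past the end of Isl1 with a signal of 323 and 632 and no IgG signal in either library, and Isl1 was still its nearest coding gene start.

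The number of regions around a gene was set beside that of all 21755 protein-coding genes, as a description. Within 100 kb the median gene had 1 region and 34.0% had none. At least 7 regions, the count of Pou4f1 and Pou4f3, were found for 241 genes (1.11%, these genes included), at least the 4 of Isl2 for 9.72%, the 3 of Pou4f2 for 20.5% and the 2 of Isl1 for 39.9%. When regions within 1 kb of the start of another coding gene were left out, Pou4f3 kept 7, a count reached by 20 genes (0.0919%), Pou4f1 kept 6 (43 genes, 0.198%) and Isl2 kept 3 (795 genes, 3.65%). Within 10 kb alone, Pou4f1 had 6, reached by 36 genes (0.165%), Pou4f3 had 3 (1.79%) and Isl2 had 1 (35.3%). Pou4f1 regions thus gathered near the gene, whereas those of Isl2 lay almost wholly at a distance.

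**Figure D3:**
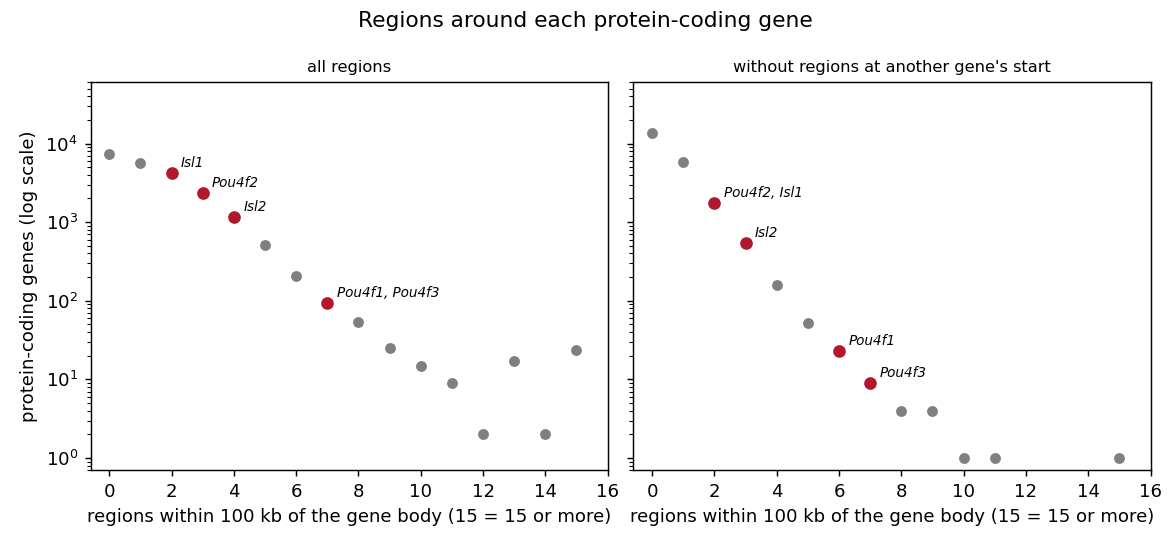
Number of protein-coding genes (y axis, log scale) that have a given number of regions within 100 kb of the gene body (x axis, the last point being 15 or more), for all regions (left) and without regions within 1 kb of the start of another coding gene (right). Red points are the counts shared by the named genes, and Pou4f1 and Pou4f3 lie in the sparse right part of both panels.

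The 100 kb limit left out regions just beyond it. Next past the limit at Pou4f1, 104.6 kb downstream of the gene end, was a region with a signal of 421 and 1151 against 0 and 22.5, higher than any of the 7 within the limit and with Pou4f1 as its nearest coding start. At Isl2 the next was 111.4 kb upstream, with 504 and 466 against 11.3 and 0. The next upstream of Pou4f3, at 118.9 kb, was centred 71 bp from the start of Rbm27. At the inner side of the limit, the farthest region was that 91.0 kb upstream of Isl2.

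Regions beyond 10 kb had a higher median Pou4f1 signal than the nearer ones, 257 (n = 9) against 179 (n = 14), with most of the height at Isl2. Of the distal regions 8 of 9 passed, and of the others 11 of 14, a difference of no more than a few regions that was not tested. Among all regions 64.8% passed. Regions away from any gene start also had the higher median in the table as a whole, 212 against 158 for those within 1 kb of a start. Among the 23, 14 were away from every annotated start and 9 within 1 kb of one.

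The 2 Pou4f1 replicates did not rank the regions alike. Replicate 2 was the higher in 11 of 23, and the ratio of replicate 2 to replicate 1 ran from 0.282 at the Rnf219 start to 2.51 at 34.8 kb from Pou4f3, with a median of 0.972 (0.810 over all regions). In the table as a whole this ratio moved with position, with a median of 0.701 within 1 kb of a start and 1.16 away from starts, and GC content did so too, at 62.7% and 49.0%. Over the 23 regions GC content ran from 44.6% to 68.3% (median 54.5%). The part of position or GC content in the replicate difference was not tested.

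**Figure D4:**
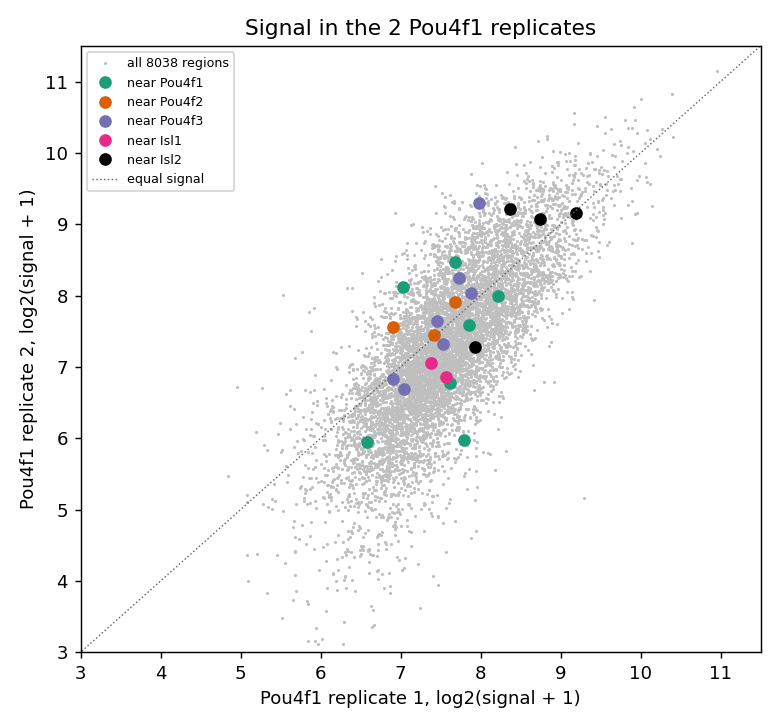
Signal in Pou4f1 replicate 2 (y axis) against replicate 1 (x axis), both as log2(signal + 1), for all 8038 regions (grey) and the 23 regions by gene (colours). The dotted line marks equal signal, and the 3 distal Isl2 regions and the highest Pou4f3 region lie in the upper right of the cloud.

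The motifs were searched on both strands. The POU4 consensus was in the central 300 bp of 1 of 23 regions, against 6.14% of all 8028 regions on chromosomes and 15.4% of those away from a start. Over the whole length it was in 3 of 23, at 7.2 kb from Pou4f1, 9.4 kb from Pou4f2 and 11.4 kb upstream of Pou4f3, against 11.1% of all regions and 26.1% of those away from a start. TAATTA was in the central 300 bp of 2 of 23, at 5.7 kb upstream of Pou4f1 and 34.8 kb downstream of Pou4f3, against 5.13%, and over the whole length of 7 of 23, 2 of the distal Isl2 regions included, against 14.1% of all regions and 27.5% of those away from a start. The octamer ATTTGCAT was in 0 of 23, against 1.25%. The TAATTA and POU4 matches printed for the region downstream of Pou4f1 do not overlap. None of the 3 was in the RefSeq promoters of Pou4f1, Pou4f2, Isl1 and Isl2, and over all 32851 promoters their shares were 0.868% (POU4 consensus), 5.29% (TAATTA) and 1.74% (octamer). The 3 distal Isl2 regions, the highest by signal, had no POU4 consensus anywhere, which says only that these letters are not in them.

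Counts for related genes stand beside those of the whole table, in which 34.0% of coding genes had no region within 100 kb and 64.8% of regions passed as higher. Of 12 other POU genes, 8 had a region within 100 kb, with 12 of 16 regions passing as higher and 0 lower, and the highest was near Pou2f2 (458 and 312 against 56.3 and 18.5). Of 10 other LIM-homeodomain genes, 7 had a region, and 8 of 16 regions passed. Lmx1b, a regulator of limb and midbrain development, had 5 regions of which 0 passed by limma. Of 9 LIM cofactors, which bind the LIM domains of such factors or their partners, 5 had a region and 11 of 20 passed. Ssbp4 alone had 12 of these regions, 5 of them passing, while Ldb2, Lmo2, Lmo3 and Lmo4 had none. The highest within 100 kb of Ssbp4 ranked 2 of 8038, but the highest within 10 kb of it ranked only 4693. Of 14 other factors of ganglion cell genesis, 12 had a region and 28 of 37 passed. There Ebf1 had 7 regions and Ebf3 had 5, the highest within 10 kb of Ebf3 at 467 and 610 against 9.39 and 0, while Eomes and Ebf2 had none. The median log2 difference of these lists, 5.06, 5.35, 4.46 and 5.07, was near or below the 5.22 of all regions and below the 5.66 of the 23 regions.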

How the data were processed

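Pooled E16.5 retinas were profiled by CUT&Tag. Paired-end reads of 75 nt were trimmed and masked by the authors, mapped to mm10 (Bowtie2 2.4.5) and passed to SEACR, run in relaxed mode, to call regions, per the paper and the submitters' processing notes. The deposited values are signal per region, not counts. For their scaling, the read totals and the pooling of replicates in region calling, no statement was found in the sources used here. The depth is therefore unknown, and the step of each library limits the precision. The column named negative control was taken as IgG since no other negative control than rabbit IgG is named. The replicates are described as independent, with no statement on whether each came from its own pool of retinas, so p-values measure the spread between these libraries.

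Pou4f1 was compared with IgG by limma 3.58.1 (R 4.3.3) on log2(signal + 1), a scale that understates changes of low regions, over all 8038 regions without covariates, with Benjamini-Hochberg adjustment and a threshold of 0.05. The fit was run on simulated data with normal noise of a common spread on the log2 scale. The read-pair steps and exact zeros of IgG were not simulated, so the simulation does not cover calls that rest on zeros. An exact permutation test of 2 against 2 libraries cannot go below p = 0.333. Where both IgG values are 0, the log2 difference is left out. Distances from a member gene run from the midpoint of the region to the 5′ end of the gene in GENCODE M21. Those to the start of another gene run to its nearest annotated transcript start, which can be internal. "Away from a start" means over 1 kb from any annotated start. Named were, per gene, the region nearest the start, that of highest signal and those with the POU4 consensus in the central 300 bp. All regions of Pou4f3 and Isl2 and all beyond 10 kb were named too. The regions 7.2 kb downstream of the Pou4f1 start and 15.9 kb downstream of the Isl1 start were named outside this rule. The other upstream regions of Pou4f1 and the genes named from the related lists were picked after their values were seen. The members and lists were chosen with earlier results of these data known. Alternatives covered the pseudocount, the scaling of IgG, a filter on low signal, the variance prior, a 2-fold limit, each library left out, the distance and the motif window. Other steps used Python 3.11.15, numpy 2.4.6, pandas 2.3.3, pysam 0.24.0, samtools 1.23.1 and matplotlib 3.10.9.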

Additional observations from a re-analysis of the deposited data

How the results depend on the processing

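The Pou4f1 signal stayed above IgG in all 23 regions under every alternative except scaling by column totals, where 2 turned negative without passing, the region over the Pou4f1 start to a log2 difference of -0.20 (adjusted p = 0.767) and that 11.4 kb upstream of Pou4f3 to -0.48 (adjusted p = 0.531). That scaling also moved the median of all regions from 5.22 to 2.21. The column totals were 1758369 and 1656394 in Pou4f1 and 88179 and 120664 in IgG, over regions chosen on Pou4f1 signal. Setting them equal therefore takes out part of the difference being measured. The count of regions passing, 19 of 23 and 5205 of all, depended on the setting. It was 4 of 23 (1810 of all higher, 171 lower) with column totals as library sizes, 10 (2949) with IgG taken as 2 times shallower, 6 (2152) with IgG taken as 4 times shallower and 10 (3492) with a pseudocount of 0.1. With a pseudocount of 10 it was 23 (7443), and with the signal divided by the step of each library, an alternative chosen after seeing the data, 22 (6648). It stayed at 19 with a trend in the variance prior, with regions of a summed signal under 50 removed and with a 2-fold limit. Leaving out 1 library gave 8 to 23 of the 23 regions and 2360 to 7710 of all. The count was 8 without either Pou4f1 replicate and 23 without either IgG library, and the lone library was then assumed to vary like the others. The 4 regions at 0 in both IgG libraries (8.2 kb downstream and 54.4 kb upstream of Pou4f1, 15.9 kb downstream of Isl1 and 2.2 kb inside Isl2) passed in 12 of 12 settings, which their zeros fix in part, since scaling IgG leaves a 0 as it is. The highest Pou4f3 region and the 3 distal Isl2 regions passed in 6 of 12. A distance of 10 kb in place of 100 kb left 14 regions, 11 of them passing, and one of 50 kb left 18. Searching the whole region raised the count with the POU4 consensus from 1 to 3. No paired analysis was possible because the IgG columns carry no replicate numbers. The IgG libraries hold about 1 read pair or less in most of these regions, which limits every difference given.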
